A study of Mus musculus with 12 samples.

Results

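The genes described here are the 8 genes of MHC class II antigen presentation, chosen by symbol: the chain genes H2-Aa, H2-Ab1 and H2-Eb1, the invariant chain gene Cd74, the H2-DM genes H2-DMa, H2-DMb1 and H2-DMb2, and the regulator Ciita. All 8 were found among the 47632 genes of each of 3 tables of RNA-seq values from mouse colonic epithelial cells. The study asked what loss of TFEB, a transcription factor known for its control of lysosomal genes, does to the intestinal epithelium before and after chemical injury. It used 12 animals in 6 groups of 2: Tfeb flox/flox controls and Tfeb ΔIEC animals on Day 0, Day 4 and Day 11.

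All animals were C57/BL6 with both copies of Tfeb floxed. The Tfeb ΔIEC animals also carried 1 copy of a Cre recombinase gene driven by the villin promoter, which is active along the intestinal epithelium, and the controls had no Cre, so that the deletion and the presence of Cre cannot be told apart. The control samples bear the label WT and the deleted ones KO. Day 0 animals were untreated and were 10 or 12 weeks old in each genotype. Dextran sulfate sodium (DSS), given in drinking water at 2.5% according to the labels (the study's methods state another concentration), injures the colonic epithelium; Day 4 animals (12 weeks old) were taken under DSS and Day 11 animals (10 weeks old) after a recovery period on water. Epithelial cells were released from the colon with EDTA and were not sorted, so that immune cells lying between epithelial cells can be in the preparation.

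MHC class II molecules display peptides from the endolysosomal pathway to CD4+ T cells. An α and a β chain assemble in the endoplasmic reticulum on the invariant chain CD74, which fills the groove and directs the complex to endosomes, where proteases remove it and H2-DM exchanges its last fragment for an antigenic peptide. Dendritic cells, macrophages and B cells make class II constitutively, and epithelial cells of the inflamed gut can be induced to make it, classically by interferon-γ acting through IRF1 and CIITA. Mice of the C57BL/6 background lack a working I-E α gene, and H2-Ea-ps, the pseudogene in its place, was listed at 0 FPKM in all 6 groups.

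Each gene has 1 value per genotype and day, in FPKM (sequenced fragments scaled by transcript length and by the number of fragments mapped), which Cuffdiff made from both animals. The tables therefore hold no value per animal to test the genotypes or to give an error between animals, the authors' own test columns were not used, and every comparison here is a description of 1 pooled value beside another. Differences are given on the log2(FPKM + 1) scale, Tfeb ΔIEC minus Tfeb flox/flox, which understates the change of low genes. The FPKM values of low genes fall on sharp steps that give the worth of a single fragment, and from these steps the libraries held about 903000 to 1920000 fragments per animal. The approximate fragments behind each value below come from the same steps and from the longest transcript of each gene, which gives the most fragments. A shorter transcript gives fewer fragments and wider intervals. The intervals of ratios (95%, exact binomial) cover counting error only, not the spread between animals, and amplified fragments without molecular identifiers are not independent molecules.

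The targeted gene was lower in the deleted animals on each day. Tfeb was at 0.901 FPKM in Tfeb flox/flox and 0.185 FPKM in Tfeb ΔIEC on Day 0, at 1.08 and 0 FPKM on Day 4, and at 1.18 and 0 FPKM on Day 11. These values are low, and the fragments behind them were not worked out. The preparations were epithelial by their markers: 10 epithelial genes, among them Epcam and Krt8, summed to 8460 and 8803 FPKM on Day 0 and to 12757 and 13446 FPKM on Day 4. Single epithelial genes differed more than these sums, and their values stand beside those of the class II genes further on. The Day 4 and Day 11 tables held near-equal values although separate animals stand behind them in the labels. Of the genes with a value above 0 in both tables, 14.3% in the controls and 10.2% in the deleted animals had the identical FPKM, and the Day 11 value of a class II gene was 0.906 to 1.06 times its Day 4 value wherever it was above 0. Day 11 is therefore given beside Day 4 and is not read as a separate observation. The days were also normalized in separate tables, so levels of different days are set side by side only.

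On Day 0, before injury, all 8 class II genes had lower values in Tfeb ΔIEC animals, and 4 of them (H2-Aa, H2-Ab1, H2-Eb1 and H2-DMb1) were at least 2-fold lower on the log2(FPKM + 1) scale. No class II gene was 2-fold higher. Among the 9993 genes with at least 1 FPKM in either genotype, 47.3% had lower values of any size. Of the same genes, 16.1% were at least 2-fold lower and 13.5% at least 2-fold higher. The median difference of the 8 genes was -0.99, beside 0.06 for all genes compared. On Day 4, under DSS, 7 of the 8 genes had higher values in Tfeb ΔIEC animals, but only Cd74 was past 2-fold, and none was 2-fold lower. Their median difference was 0.60, or 0.56 without Cd74, beside 0.06 for all 9371 genes compared, of which 25.6% were at least 2-fold higher and 26.1% at least 2-fold lower. Higher values of any size were found for 51.3% of these genes. On Day 11 the count was again 7 of 8 higher, beside 51.7% of 9365 genes with higher values of any size. Only Cd74 was past 2-fold and none was 2-fold lower, with a median of 0.58 beside 0.08 for all genes, of which 26.1% were at least 2-fold higher and 25.7% at least 2-fold lower. These shares are over genes of at least 1 FPKM, of which the 8 class II genes supply 5 on Days 4 and 11, and the number past 2-fold depends on the scaling of the columns, as given further on. Of the 8 genes, 6 reached 1 FPKM in either genotype on Day 0 and 5 on Day 4 and Day 11; H2-DMb2 and Ciita did so on no day.

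**Figure D1:**
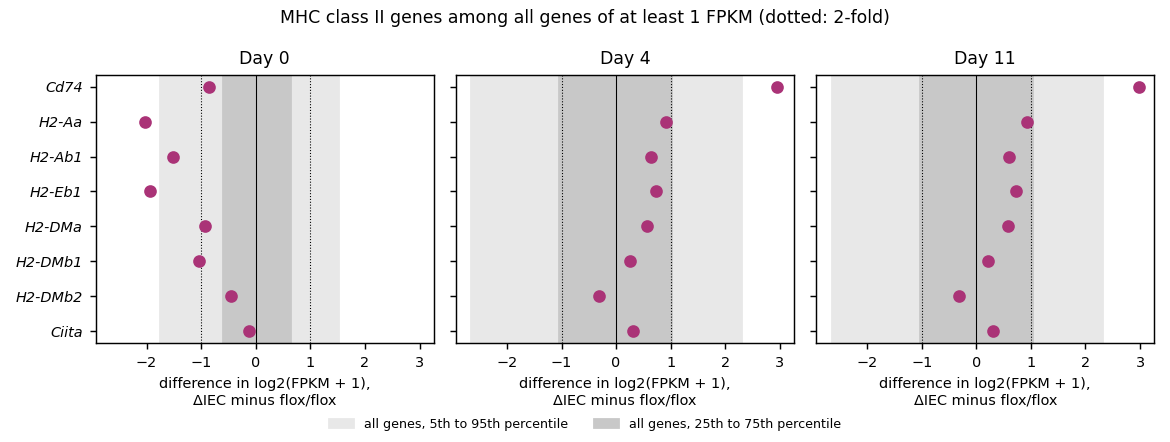
Difference in log2(FPKM + 1) between Tfeb ΔIEC and Tfeb flox/flox for the 8 class II genes (points, 1 pooled value per genotype) on each day, with the middle ranges of all genes of at least 1 FPKM shaded and 2-fold dotted. All 8 points lie below 0 on Day 0, and on Days 4 and 11 Cd74 stands at 2.95 and 2.98 while the other 7 lie between -0.32 and 0.92.

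The order of the levels was nearly the same in every group. FPKM is a value per length, but the genotype differences still followed transcript length, as given further on. Levels of genes of unlike length therefore compare only roughly. Cd74 was the highest, followed by H2-Ab1, H2-Aa and H2-Eb1, with H2-DMa next in 5 of the 6 groups; in Tfeb ΔIEC on Day 0, H2-DMa at 0.596 FPKM stood above H2-Eb1 at 0.390 FPKM, a pair resting on about 3 fragments and 1 fragment that counting error does not separate. H2-DMb1, H2-DMb2 and Ciita were the lowest 3 in every group, at 0 to 1.06 FPKM, and their order among themselves varied.

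**Figure D2:**
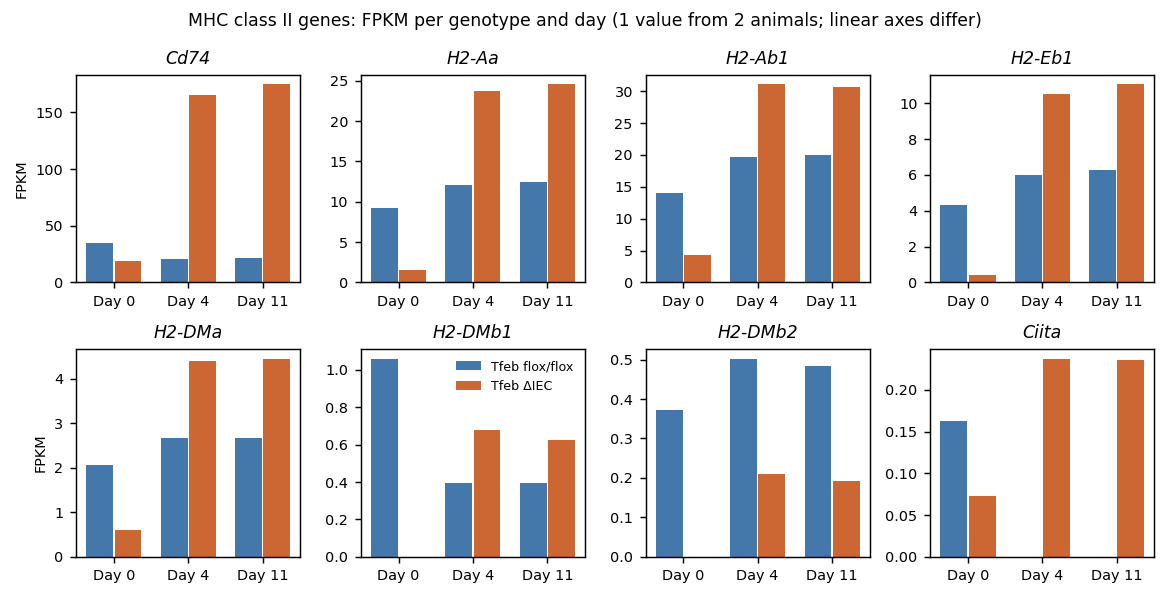
FPKM of the 8 class II genes by day in Tfeb flox/flox (blue) and Tfeb ΔIEC (orange), each bar 1 pooled value from 2 animals, with a linear axis of its own per gene. The Tfeb ΔIEC bars are the lower ones on Day 0 for all genes and the higher ones on Days 4 and 11 for all but H2-DMb2.

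The class II chain genes lie on chromosome 17 (mm10, H2-Ab1 at chr17:34263209-34269418, H2-Aa at chr17:34282744-34287827 and H2-Eb1 at chr17:34305877-34316199). H2-Aa, which encodes the α chain of I-A, the class II molecule of this strain, was at 9.23 FPKM in Tfeb flox/flox and 1.52 FPKM in Tfeb ΔIEC on Day 0, at 12.1 and 23.7 FPKM on Day 4, and at 12.5 and 24.5 FPKM on Day 11. Within each day, the deleted animals had the lower value before injury and the higher value on Days 4 and 11. The Day 0 difference was -2.02 on the log2(FPKM + 1) scale, lower than that of all but 3.30% of the genes compared, and a ratio of 6.07 to 1 with an interval of 2.08 to 36.8, since the Tfeb ΔIEC value rests on about 3 fragments against about 20. The Day 4 difference was 0.92, a ratio of 1.97 (1.19 to 3.45) from about 19 and 80 fragments. With the shortest transcript these are about 13 and 53 fragments, and the interval would be wider.

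H2-Ab1, the β chain partner of H2-Aa, was at 13.99 and 4.26 FPKM on Day 0, at 19.7 and 31.1 FPKM on Day 4 and at 20.0 and 30.7 FPKM on Day 11 in Tfeb flox/flox and Tfeb ΔIEC. Its differences were -1.51, 0.63 and 0.60. The control stood 3.28-fold above the deleted animals on Day 0 (1.55 to 6.91, about 33 and 11 fragments) and the deleted animals 1.58-fold above the control on Day 4 (1.07 to 2.40, about 34 and 115 fragments). With the shortest transcript the Day 4 numbers are about 23 and 76, so that interval would be wider and could include 1. The ratio of H2-Aa to H2-Ab1 was 0.660 in the control and 0.356 in Tfeb ΔIEC on Day 0, and 0.613 and 0.764 on Day 4, so the pair kept a like proportion in every group but the one with about 3 H2-Aa fragments.

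H2-Eb1 encodes the I-E β chain, whose α partner this strain does not make. It was at 4.34 and 0.390 FPKM on Day 0, at 5.97 and 10.5 FPKM on Day 4, and at 6.26 and 11.05 FPKM on Day 11. The differences were -1.94, 0.73 and 0.73, close to those of H2-Aa and H2-Ab1 on each day. The Day 0 ratio of 11.1 to 1 has an interval of 2.43 to 664 because about 1 fragment stands behind the lower value and about 15 behind the higher one. The Day 4 ratio was 1.76 with an interval of 1.01 to 3.45. The 3 chain genes together summed to 27.6 FPKM in Tfeb flox/flox and 6.17 FPKM in Tfeb ΔIEC on Day 0, to 37.7 and 65.3 FPKM on Day 4 and to 38.7 and 66.3 FPKM on Day 11.

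Cd74, the invariant chain gene (mm10, chromosome 18, bases 60803848 to 60812646), had the largest difference of the 8 genes under DSS. It was at 34.7 FPKM in Tfeb flox/flox and 18.8 FPKM in Tfeb ΔIEC on Day 0, at 20.5 and 165 FPKM on Day 4, and at 21.3 and 175 FPKM on Day 11. Only the 2 deleted groups after DSS exceeded 35 FPKM. The Day 4 difference of 2.95 was above that of 98.1% of the genes compared, and the ratio of 8.05 had an interval of 5.91 to 11.2 from about 43 and 737 fragments. That interval and those of H2-Aa, H2-Ab1 and H2-Eb1, whose upper bounds were 3.45, 2.40 and 3.45, do not overlap. These intervals take the longest transcript of each gene and make no allowance for the length trend given further on. Whether the difference between Cd74 and the chains exceeds the spread between animals could not be tested. On Day 0 the difference was -0.85, and the control stood 1.85-fold above the deleted animals (1.33 to 2.63, about 99 and 56 fragments), which is the opposite direction.

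Cd74 also stood in another proportion to the chains. The Cd74 level divided by the mean level of the 3 chain genes was 3.78 in the controls and 9.13 in the deleted animals on Day 0, 1.63 and 7.58 on Day 4, and 1.65 and 7.90 on Day 11. The ratio was thus higher in the deleted animals on each day, on Day 0 through lower chain values and on Days 4 and 11 through the higher Cd74 value. The Day 0 ratio in the deleted animals rests on about 3, 11 and 1 fragments of the chain genes, and the Day 0 interval of Cd74 (deleted over control, 0.381 to 0.754) overlaps those of H2-Aa (0.0272 to 0.481), H2-Ab1 (0.145 to 0.643) and H2-Eb1 (0.00151 to 0.412). This ratio is formed within a column, so it does not depend on how the genotypes were scaled to each other. It can still depend on transcript length. Genes about as long as Cd74 had a Day 4 median difference of 0.003, those as long as H2-Aa -0.65, as H2-Ab1 -0.55 and as H2-Eb1 0.17. The part of length in this ratio was not tested.

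The H2-DM genes encode the heterodimer that catalyses peptide loading (mm10, H2-DMa at chr17:34135182-34139101, H2-DMb2 at chr17:34143307-34151553 and H2-DMb1 at chr17:34153072-34160230). H2-DMa, the α chain, followed the class II chains at a lower level, with 2.06 and 0.596 FPKM on Day 0, 2.66 and 4.40 FPKM on Day 4 and 2.66 and 4.44 FPKM on Day 11. Its differences were -0.94, 0.56 and 0.57, all short of 2-fold, and both the Day 0 ratio (3.46 to 1, interval 0.787 to 18.1) and the Day 4 ratio (1.65, interval 0.788 to 4.44) had intervals that include 1.

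The β chain genes H2-DMb1 and H2-DMb2 were at the limit of detection. H2-DMb1 was at 1.06 FPKM in Tfeb flox/flox and listed at 0 in Tfeb ΔIEC on Day 0, and at 0.397 and 0.677 FPKM on Day 4 and 0.397 and 0.626 FPKM on Day 11. H2-DMb2 was at 0.372 and 0 FPKM, then 0.502 and 0.211 FPKM, then 0.485 and 0.191 FPKM, which makes it the only one of the 8 with the lower value in Tfeb ΔIEC on all 3 days. No value of either gene rests on more than about 3 fragments, so no fold is given, and the Day 0 call of H2-DMb1 (-1.04) is about 3 fragments against 0. The 2 genes also share sequence: 369 of their 50-base stretches occur in both, and 22.7% of those of H2-DMb1 and 24.8% of those of H2-DMb2 occur in another gene, so the counting could have divided reads between them. For Cd74, H2-Ab1, H2-Eb1, H2-DMa and Ciita the share was 0%, and for H2-Aa it was 0.488%.

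Ciita encodes the class II transactivator, the coactivator without which class II genes are barely transcribed (mm10, chr16:10488178-10543054). It was at 0.162 FPKM in Tfeb flox/flox and 0.0725 FPKM in Tfeb ΔIEC on Day 0, listed at 0 in the control and at 0.237 FPKM in Tfeb ΔIEC on Day 4, and at 0 and 0.236 FPKM on Day 11. About 2 fragments and 1 fragment on Day 0, and 0 and about 5 on Day 4, stand behind these values. Detection under DSS in the deleted animals only therefore rests on about 5 fragments in 1 pooled value, or about 1 fragment if the shortest transcript of the gene is assumed.

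CIITA does not bind DNA itself and acts through factors bound to paired elements, the X box and the Y box, ahead of class II genes. RefSeq promoter windows (GRCm38.p6, 250 bases before to 50 bases after the annotated start) were given for H2-Aa, H2-Eb1, H2-DMb1, H2-DMb2 and H2-DMa and were not given for H2-Ab1, Ciita and the invariant chain gene. They are shown here for the 4 whose matches lie near the start, to let the spacing of the boxes be read, from 150 bases before the start to 10 bases after it and 5′ to 3′ on the strand of the gene. Capitals mark matches to CTNGNAAC, a core of the X box, and to ATTGG, the core of the Y box, or its reverse complement. H2-Aa is at chr17:34287814-34287973 on the minus strand, and H2-Eb1 at chr17:34305717-34305876, H2-DMb1 at chr17:34153041-34153200 and H2-DMb2 at chr17:34145099-34145258 are on the plus strand.
H2-Aa: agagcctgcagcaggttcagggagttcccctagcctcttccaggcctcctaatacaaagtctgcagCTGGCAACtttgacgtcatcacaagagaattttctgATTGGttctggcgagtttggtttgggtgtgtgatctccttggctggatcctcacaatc
H2-Eb1: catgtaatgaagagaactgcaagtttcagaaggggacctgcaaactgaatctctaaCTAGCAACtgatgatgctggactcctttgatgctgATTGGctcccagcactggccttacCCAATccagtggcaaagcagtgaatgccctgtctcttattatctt
H2-DMb1: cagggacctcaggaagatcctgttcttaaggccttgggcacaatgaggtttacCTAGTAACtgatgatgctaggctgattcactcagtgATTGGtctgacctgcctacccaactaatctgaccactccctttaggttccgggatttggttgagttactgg
H2-DMb2: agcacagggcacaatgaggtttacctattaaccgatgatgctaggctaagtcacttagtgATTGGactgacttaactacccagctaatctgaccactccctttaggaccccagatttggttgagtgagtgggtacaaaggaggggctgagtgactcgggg

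In H2-Aa the X box letters begin 84 bases before the start and the Y box letters 48 bases before it, in H2-Eb1 94 and 59 bases before it, and in H2-DMb1 97 and 61 bases before it. The distance from the first letter of one to the first letter of the other was 36 bases in H2-Aa, 35 in H2-Eb1 and 36 in H2-DMb1. H2-Eb1 has a second Y box match on the opposite strand, 35 bases before the start. H2-DMb2 has the Y box letters at 90 bases before its start and no match to the X box letters in the window, and H2-DMa has a Y box match alone, 198 bases before the start in 1 of its 2 windows. Among 32817 RefSeq promoters of the same length, ATTGG occurred in 37.4% and CTNGNAAC in 13.1%, searched on both strands. The ordered pair at 8 to 60 bases, searched on the strand of the gene only, occurred in 0.250%, or 82 promoters. The longer letters CCTNGNAAC, which contain CTNGNAAC, occurred in 4.85% and matched H2-DMb1 alone of these genes. The shorter letters and the pair were searched after the longer ones had been seen to miss. A match is a match of letters and says nothing of binding in these cells. The deposited loci of H2-DMb1, H2-DMb2 and H2-DMa do not begin at the RefSeq starts used here.

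**Figure D3:**
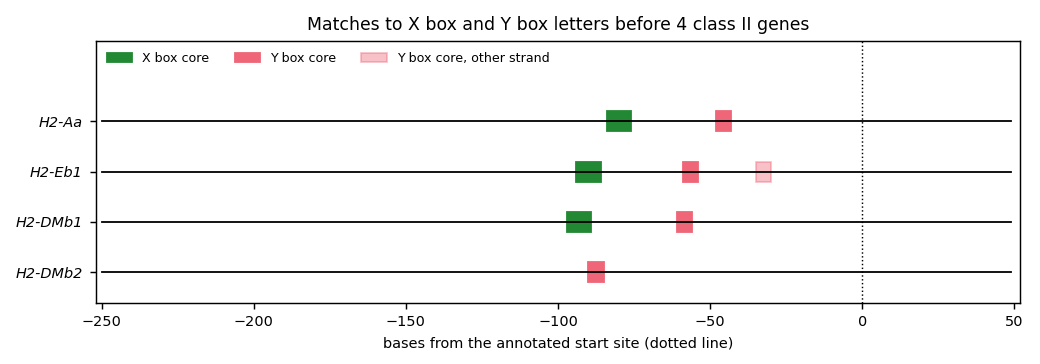
Positions of matches to the X box core (green) and Y box core (red, paler where on the other strand) in the RefSeq promoter windows of 4 class II genes, in bases from the annotated start site (dotted). H2-Aa, H2-Eb1 and H2-DMb1 hold both matches 35 or 36 bases apart, and H2-DMb2 holds the Y box match alone.

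The factors that bind these boxes were low throughout. Of 7 genes (Rfx5, Rfxap and Rfxank of the RFX complex at the X box, Creb1, and Nfya, Nfyb and Nfyc of the NF-Y complex at the Y box), none exceeded 3.48 FPKM in any group. On Day 0, 1 gene, Rfxap, was more than 2-fold higher in Tfeb ΔIEC (0 and 1.87 FPKM) and 1, Nfya, more than 2-fold lower (2.17 and 0.221 FPKM), beside 13.5% and 16.1% of all genes compared. On Day 4, 3 of the 7 reached 1 FPKM and only Nfya was past 2-fold, at 0.136 and 1.71 FPKM, beside 25.6% of all genes higher and 26.1% lower. Rfx5 was listed at 0 in the control and at 0.0685 FPKM in Tfeb ΔIEC. Rfxap was the reverse, at 0.290 FPKM in the control and listed at 0 in Tfeb ΔIEC. The remaining 4 genes were within 2-fold on Day 4, and the median difference of the 7 was 0.54 on Day 0 and 0.10 on Day 4.

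Genes of the route from interferon-γ to Ciita had higher values in Tfeb ΔIEC under DSS more often than lower ones. On Day 4, 4 of the 9 genes were at least 2-fold higher, beside 25.6% of all genes compared, 1 was at least 2-fold lower, beside 26.1%, and the median difference was 0.66. Ifngr1, a subunit of the interferon-γ receptor, was at 11.7 FPKM in Tfeb flox/flox and 100.7 FPKM in Tfeb ΔIEC, and Ifngr2, the other subunit, at 38.6 and 92.6 FPKM. Irf1, which activates a Ciita promoter, was at 12.8 and 47.9 FPKM, and the kinase gene Jak1 at 3.38 and 7.91 FPKM. Usf1, which binds the same Ciita promoter, was the lower one at 8.75 and 3.87 FPKM. On Day 0, 1 of the 9 genes was past 2-fold, Socs1, a feedback inhibitor, at 0 and 1.15 FPKM, beside 13.5% of all genes higher and 16.1% lower. Ifng itself was listed at 0 in all 6 groups, and at this depth a low level would not have been seen.

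Genes of antigen processing in the endolysosome, where the invariant chain is degraded, were detected in every group in all 10 cases matched by symbol. On Day 4, 4 of 10 were at least 2-fold higher in Tfeb ΔIEC, beside the same 25.6%, 1 was at least 2-fold lower, beside 26.1%, and the median difference was 0.36, while on Day 0 none was past 2-fold, beside 13.5% higher and 16.1% lower of all genes, and the median was 0.02. Ctss, the cathepsin that cleaves the invariant chain in professional presenting cells, was at 66.1 and 160 FPKM on Day 4. Sppl2a, the intramembrane protease that removes the last membrane-bound piece of CD74, was at 10.0 and 89.4 FPKM, a difference of 3.03 beside the 2.95 of Cd74. Ctsb was at 13.3 and 73.9 FPKM and Ctsd at 25.7 and 91.4 FPKM, both general lysosomal proteases. Ifi30, the lysosomal thiol reductase that opens disulfide bonds of antigens, was the lower one at 189 and 58.4 FPKM. Ctsl, the cathepsin that takes the place of Ctss in thymic epithelium, was at 11.1 and 9.14 FPKM. March1 and March8, ubiquitin ligases that remove class II from the surface, were not matched by symbol and are not analysed here.

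The remaining class II genes and the costimulatory genes were near 0. H2-Oa, H2-Ob and H2-Eb2 reached at most 0.544 FPKM in the control and were listed at 0 in Tfeb ΔIEC on each day. All 6 costimulatory genes examined (Cd80, Cd86, Cd40, Icosl, Cd274 and Pdcd1lg2) were below 1 FPKM in every group, and Cd40 and Cd80 were listed at 0 in all.

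The class II stretch of chromosome 17 (chr17:34083843-34344643, from H2-Oa to H2-Ea-ps) holds 12 other listed genes, of which 5 reached 1 FPKM. On Day 4, Psmb8 and Psmb9, the immunoproteasome subunits that serve class I presentation, were lower in Tfeb ΔIEC at 143 and 57.1 FPKM and at 43.2 and 17.4 FPKM. Tap1 and Tap2, the transporter that feeds peptides to class I, were on that day at 1.98 and 9.23 FPKM and at 4.18 and 7.21 FPKM. Brd2, a chromatin reader unrelated to presentation, was at 5.50 and 12.0 FPKM on the same day. Tap1 and Brd2 had the opposite direction on Day 0, at 5.15 and 3.48 FPKM and at 10.9 and 10.5 FPKM, while Psmb8, Psmb9 and Tap2 kept theirs. On Day 4, 2 of these 5 were at least 2-fold higher and 2 at least 2-fold lower, beside 25.6% and 26.1% of all genes, and on Day 0, 1 was higher and 1 lower, beside 13.5% and 16.1%. On Day 11, 1 was higher and 2 lower, beside 26.1% and 25.7%.

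The summed levels of immune cell markers, like those of the class II genes, were lower in Tfeb ΔIEC on Day 0. The summed level of 7 pan-leukocyte genes was 17.7 FPKM in Tfeb flox/flox and 6.29 FPKM in Tfeb ΔIEC, that of 12 T cell genes 11.3 and 2.78 FPKM, that of 10 B cell genes 4.54 and 1.44 FPKM, that of 6 plasma cell genes 25.6 and 14.6 FPKM, and that of 18 dendritic cell and macrophage genes 12.6 and 4.95 FPKM. The sum of the 8 class II genes was 65.9 and 25.6 FPKM, a ratio of 0.389, beside ratios of 0.355, 0.246, 0.318, 0.570 and 0.394 for these lists in the same order. Gene by gene, 5 of 7 pan-leukocyte, 4 of 12 T cell, 7 of 10 B cell, 5 of 6 plasma cell and 4 of 18 dendritic cell and macrophage genes were lower, 1, 1, 0, 0 and 2 were higher, and the others were listed at 0 in both genotypes. Of all genes of at least 1 FPKM, 47.3% were lower and 52.7% higher. Fcer1g, an Fc receptor subunit, made up most of the last sum at 9.44 and 3.02 FPKM, and without it the ratio was 0.619.

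Epithelial genes did not share one direction on Day 0. The sum of the 10 epithelial markers gave a ratio of 1.04, with 5 genes higher and 5 lower, and the sum of 7 colonocyte markers, genes of the mature absorptive and secretory colon, a ratio of 0.807. Of the latter, 3 were at least 2-fold lower in Tfeb ΔIEC, beside 16.1% of all genes compared: the water channel gene Aqp8 at 198 and 30.1 FPKM, the carbonic anhydrase gene Car4 at 269 and 91.9 FPKM and the fatty acid binding protein gene Fabp2 at 1882 and 891 FPKM. The mucin gene Muc2 was at least 2-fold higher at 1034 and 2744 FPKM, beside 13.5% of all genes. The part of immune or epithelial cells in the Day 0 difference was not tested, and in bulk samples fewer cells of a type and less RNA per cell cannot be told apart.

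On Day 4 the immune lists were mixed. The class II sum was 61.8 FPKM in Tfeb flox/flox and 236 FPKM in Tfeb ΔIEC, a ratio of 3.82. Pan-leukocyte genes stood at 17.4 and 16.3 FPKM, T cell genes at 8.99 and 5.997 FPKM and plasma cell genes at 24.7 and 20.2 FPKM, ratios of 0.940, 0.667 and 0.818. Igha, the IgA heavy chain gene, made up most of the plasma cell sums at 23.7 and 19.7 FPKM. Dividing each value by its column sum multiplies every Day 4 ratio by 1.79, so that these 3 became 1.68, 1.19 and 1.46, on the other side of 1, while that of the class II genes became 6.82, that of B cell genes 17.8, that of dendritic cell and macrophage genes 2.46 and that of epithelial genes 1.88. Within the pan-leukocyte list, Cd52 and Coro1a had lower values in Tfeb ΔIEC and the other 5 genes higher ones, among them Rac2 at 0.165 and 1.64 FPKM and Laptm5 at 1.52 and 3.71 FPKM, and the list's median difference was 0.32. Dendritic cell and macrophage genes stood at 15.7 and 21.5 FPKM, with 5 genes higher and 5 lower. Fcer1g was at 5.91 and 14.6 FPKM, and without it the sums were 9.75 and 6.96 FPKM, the opposite direction. Tyrobp was at 4.47 and 0 FPKM and C1qb, which went the other way, at 0 and 3.26 FPKM. Of the list, 2 genes were at least 2-fold higher and 1 at least 2-fold lower, beside 25.6% and 26.1% of all genes compared. Of the 18 genes, Cd68, Adgre1, C1qc, Cd209a, Clec9a, Flt3 and Xcr1, 7 in all, were listed at 0 in all 6 groups. B cell genes stood at 0.623 and 6.20 FPKM, a ratio of 9.95, while Cd79a was listed at 0 in both genotypes on Day 4 and Pax5, Cd22 and Ighd were listed at 0 in all 6 groups. On Day 11 the sums were 18.3 and 16.9 FPKM for pan-leukocyte genes, 0.613 and 6.41 FPKM for B cell genes, and 15.5 and 22.2 FPKM for dendritic cell and macrophage genes.

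Among the epithelial and colonocyte markers, Krt20 and Slc26a3 differed as much as Cd74 on Day 4, and the others differed less. Of the 10 epithelial markers, 4 were at least 2-fold higher in Tfeb ΔIEC and 1 at least 2-fold lower, beside 25.6% and 26.1% of all genes compared, although their sums gave a ratio of 1.05. Krt20, a keratin of mature surface cells, was at 101.4 and 931 FPKM, a ratio of 9.19, and Vil1, the gene of villin, at 30.6 and 224 FPKM, a ratio of 7.33. The cadherin gene Cdh1 was at 24.5 and 164 FPKM (6.70) and the transcription factor gene Elf3 at 113 and 463 FPKM (4.09), while Cldn3, a tight junction gene, was at 1573 and 562 FPKM. Of the 7 colonocyte markers, 3 were at least 2-fold higher and none 2-fold lower, among them Slc26a3, a chloride transporter gene, at 33.3 and 271 FPKM, a ratio of 8.14 beside the 8.05 of Cd74. The part of B cells, of dendritic cells and macrophages, or of epithelial cells in the Day 4 values of the class II genes was not tested.

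**Figure D4:**
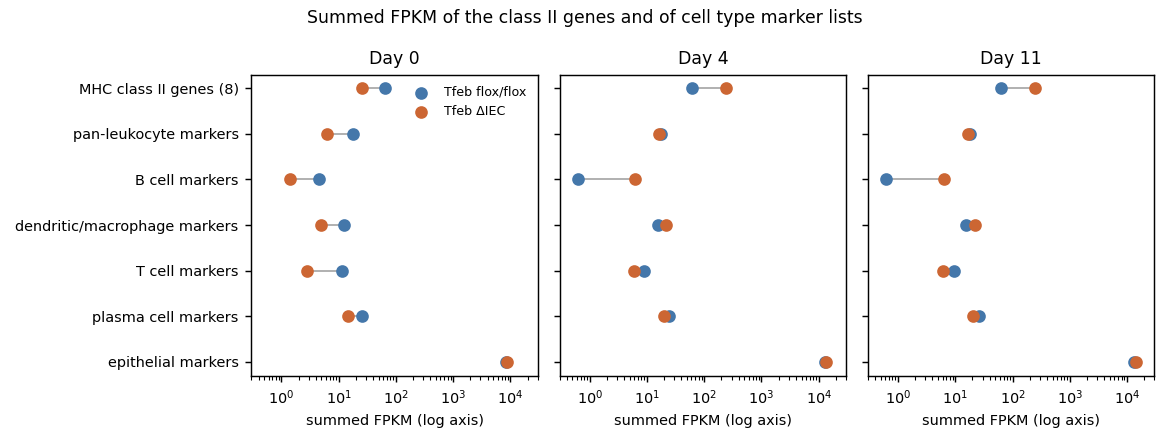
Summed FPKM (log axis) of the 8 class II genes and of 6 marker lists in Tfeb flox/flox (blue) and Tfeb ΔIEC (orange) on each day, 1 pooled value per point. On Day 0 the sums of the class II genes and of all 5 immune lists are lower in Tfeb ΔIEC, and on Day 4 the class II sum is 3.82 times and the B cell sum 9.95 times that of the control while the pan-leukocyte sums are 17.4 and 16.3 FPKM, a direction that turns when values are divided by column sums.

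The scaling of the columns and transcript length both moved with genotype and touch these values. On Day 4 the FPKM values of all genes summed to 1464720 in the controls and to 820344 in the deleted animals, whereas on Day 0 the sums were 975316 and 973878. The sums differ by 0.84 on the log2 scale. With each value divided by its column sum, 5 of the 8 genes were past 2-fold higher on Day 4 (Cd74, H2-Aa, H2-Ab1, H2-Eb1 and H2-DMa). Differences also followed transcript length, on Day 4 with a median of -1.06 for genes of 500 to 1000 bases, -0.24 for 1000 to 1500 bases and 0.47 for 1500 to 3000 bases. After the running median over length was subtracted, the Day 4 differences were 2.95 for Cd74, 1.57 for H2-Aa, 1.19 for H2-Ab1 and 0.56 for H2-Eb1, and 3 genes were past 2-fold higher. On Day 0 the medians were -0.57 for 500 to 1000 bases and 0.38 for 3000 bases and more, and subtraction took H2-Aa from -2.02 to -1.60 and the genes past 2-fold lower from 4 to 3. Under these scalings Cd74 and the 3 chain genes kept the higher value in Tfeb ΔIEC on Day 4 and the lower value on Day 0, and Ciita turned to the lower value on Day 4 (-0.27) with length subtracted. The part of length and of scaling in these differences was not tested.

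The genes whose 6 values were most like the mean pattern of Cd74 and the 3 chain genes were sought among 5571 genes of at least 5 FPKM in a group, by the root mean square difference between centred log2(FPKM + 1) values. The nearest were Dgat2 (0.279), Gm11895 (0.298), Rnf214 (0.329), Dnajc24 (0.340), BC025446 (0.368) and Pde9a (0.373), where 0 would be an identical pattern. Dgat2, an enzyme of triglyceride synthesis, was at 10.0 and 4.69 FPKM on Day 0, 19.8 and 41.0 FPKM on Day 4 and 21.3 and 41.8 FPKM on Day 11. Cd74 itself was farther from the mean pattern that it helped to form than any of these, at 0.731. The likeness is over 6 values from 3 tables, of which the last 2 are nearly equal.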

How the data were processed

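RNA was prepared from EDTA-released colonic epithelial cells, and full-length cDNA was amplified by a variation of SmartSeq2 and sequenced as read pairs on a MiSeq. The authors mapped the pairs to mm10 with TopHat2 (2.0.14, from the submitters' processing notes) and Bowtie, and Cuffdiff (2.1.1) was run on the genotypes day by day. The 3 deposited tables give 1 FPKM per gene and genotype, scaled by Cuffdiff between the 2 genotypes of that day. They also hold the authors' own fold change, test statistic, p-value, q-value, test status and significance flag, which were not used.

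From these values differences in log2(FPKM + 1) were computed, a difference of at least 1 being called past 2-fold. The shares and medians of all genes are over those that reached 1 FPKM in a genotype of that day, whereas counts and medians of the class II genes and the lists are over every member found, filter passed or not. The scripts were checked on simulated data, which tests their arithmetic only. As the values are pooled and the authors' test columns were not used, no test of the genotypes is given. The worth of 1 fragment was read from the steps of FPKM times effective length of low genes with a single transcript, with a fragment length of 250 bases chosen for the sharpest steps. This was decided after the values were seen. Each group has 1 step, taken as shared by its 2 animals, and the spread of values about it was 0.0030 to 0.0129 log2 units on Days 0 and 4 and 0.0849 and 0.0877 on Day 11, where fragment numbers are rougher. The depth per animal implied by the steps, 903000 to 1920000 fragments, cannot be separated from the scaling by Cuffdiff between genotypes. Transcript lengths and shared 50-base stretches came from GENCODE M21, on the same assembly, where 47218 genes had a length.

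All 8 class II genes were named. From the other lists, at most 6 genes each were named, the highest and those with the largest Day 4 change, together with members whose absence from the tables or listing at 0 is stated, the genes outside the lists in the class II stretch, the 6 genes most like the chains in pattern, and Tfeb. Genes of the class II stretch and the additional genes of the processing and marker lists were chosen after their values were seen. The members and lists were chosen with earlier results of these data known. Single values of 2 genes in these lists are not reported here. The alternatives tried were other pseudocounts, fold limits, filters, scaling by column sum, centring and subtraction of the length trend. The analysis used Python 3.11.15, numpy 2.4.6, pandas 2.3.3 and scipy 1.17.1.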

Additional observations from a re-analysis of the deposited data

How the results depend on the processing

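All 8 class II genes had the lower value in Tfeb ΔIEC on Day 0 under every pseudocount and scaling tried, and Cd74, H2-Aa, H2-Ab1, H2-Eb1 and H2-DMa the higher value on Days 4 and 11. The number past 2-fold depended on the setting. On Day 0 the 4 lower genes became 2 with a pseudocount of 5 FPKM, 1 at a 4-fold limit, 6 with a pseudocount of 0.1 FPKM or at a 1.5-fold limit, 5 when centred or in plain ratios, and 3 with the length trend subtracted. On Days 4 and 11 alike, the 1 higher gene became 2 with a pseudocount of 0.1 FPKM, 5 after division by the column sum, 3 with the length trend subtracted and 4 at a 1.5-fold limit. In plain ratios without a pseudocount, H2-DMb2 was past 2-fold lower on Days 4 and 11 (1 gene each), and on Day 11 also with a pseudocount of 0.1 FPKM (1 gene). About 1 fragment stands behind each of these H2-DMb2 values, so the call is not read as a difference.

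With pseudocounts of 0.1 and 5 FPKM, division by the column sum, centring on all genes and subtraction of the length trend, the median difference of the 8 genes was -1.96, -0.54, -0.99, -1.05 and -0.98 on Day 0. In the same order it was 0.76, 0.40, 1.32, 0.54 and 0.49 on Day 4, and 0.76, 0.41, 1.31, 0.51 and 0.44 on Day 11. The share of all genes past 2-fold on Day 4 was 16.8% higher and 17.1% lower with no filter, and 39.9% lower with a filter at 10 FPKM. On Day 11 these shares were 17.1%, 16.8% and 39.5%. With the shortest transcript of each gene as its length, 15 of the 48 approximate fragment numbers left their counting interval. Alternatives added after seeing the data turned the direction of summed immune markers. Divided by column sums, the ratios of Tfeb ΔIEC to control on Days 4 and 11 were 1.68 and 1.65 for pan-leukocyte, 1.19 and 1.13 for T cell and 1.46 and 1.41 for plasma cell genes, and without Fcer1g those of dendritic cell and macrophage genes were 0.714 and 0.771. The cause of these shifts was not tested.

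No paired analysis was possible because the tables hold no value per animal, and leaving out an animal needs such values too.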
